A study of Homo sapiens with 12 samples.

Results

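The genes of the ISG15 conjugation system were described across SW1990 and PANC-1, a pair of established cell lines from human pancreatic ductal adenocarcinoma. The 6 listed genes were ISG15, UBA7, UBE2L6, HERC5, HERC6 and USP18, chosen by symbol, and 5 of them had a value among the 22411 genes measured. UBA7, the activating enzyme, was the exception, since its only probe set is shared with the miRNA gene MIR5193, so no value is given for it. Each line had 3 arrays labelled GLI1, for cells given a plasmid that expresses this Hedgehog transcription factor by lipid transfection, and 3 arrays labelled control, for cells given the plasmid vector without an insert. The SW1990 arrays are called LIP, LIP-1 and LIP-2 (GLI1) and a, b and c (control), and the PANC-1 arrays LIP, LIP-1 and LIP-2 (GLI1) and S10, S11 and S8 (control). By these descriptions all cells were transfected with plasmid DNA, and none of the 12 arrays was described as untransfected. What LIP means in the array names is not stated. No source used here states whether replicate arrays were made from separate cultures, so p-values measure the spread between these arrays, which may be technical.

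The targeted gene ran against its label. On the normalized log2 scale, GLI1 read 6.999, 6.90 and 6.77 in the SW1990 arrays labelled GLI1 and 11.82, 11.84 and 11.76 in those labelled control, and 7.76, 7.9996 and 8.04 against 11.50, 11.54 and 11.46 in PANC-1. Every direction below is therefore that of the arrays labelled GLI1 against the arrays labelled control, and does not say which cells had more GLI1 plasmid. The methods describe Agilent slides with Cyanine-3, whereas the labels give biotin and the probe set names belong to an Affymetrix design, the Human Transcriptome Array. Control array S8 of PANC-1 stood apart from S10 and S11 in the genes described here, and over all genes as well. Its Pearson correlation was 0.987 and 0.988 with these arrays of its own group and 0.989 to 0.992 with the 3 GLI1-labelled PANC-1 arrays, and the SD of its difference from S10 and S11 was 0.341 and 0.329 on the log2 scale, against 0.153 between S10 and S11. PANC-1 values without S8 are also given for each gene of the system and for the counts of each gene list. S8 was set apart because of its values for interferon-induced genes in these same data. Leaving it out narrows the spread of the genes of the system, so p-values and calls without S8, in either line, are descriptive. All 5 epithelial markers were measured. CDH1, the epithelial cadherin, averaged 10.998 and 11.13 in the GLI1- and control-labelled arrays of SW1990 but 7.01 and 6.78 in PANC-1, and EPCAM behaved likewise. Between the labels, 0 of the epithelial markers were called in SW1990 by limma (0 also at an unadjusted p under 0.05) and 1 was higher in PANC-1, which became 4 without S8. Of 7 leukocyte markers 6 were measured, their summed group means ran from 34.7 to 37.4, and PTPRC, which marks all leukocytes, lay at 3.42 to 3.46 in the 4 groups, between the 3.79 and the 4.16 percentile of all genes. CD68, a macrophage marker that other cells also express, was far brighter and averaged 8.59 and 9.42 in the GLI1- and control-labelled arrays of SW1990 and 10.37 and 11.04 in PANC-1, differences of -0.83 and -0.67 that did not pass and that were called without S8 (-0.83, limma adjusted p = 0.0251, and -1.12, limma adjusted p = 0.00994). By limma 0 leukocyte markers were called in SW1990, and 1 was higher and 1 lower in PANC-1. Without S8 1 was lower in SW1990, and 1 was higher and 2 lower in PANC-1. In the GLI1- and control-labelled arrays, CD14 averaged 6.59 and 6.80 in SW1990 and 6.64 and 6.17 in PANC-1, there opposite to CD68. ITGAM averaged 6.34 and 6.52 in SW1990 and 6.46 and 6.89 in PANC-1. The shares of all genes called are given with the gene lists below. The part of these markers in the results below was not tested.

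ISG15 is a small ubiquitin-like protein that interferon induces and that is joined to other proteins by a chain of enzymes much like that of ubiquitin. UBA7 activates ISG15, UBE2L6 carries it as the conjugating enzyme, and HERC5 is the main human ligase that transfers it, acting on newly made proteins at the ribosome. HERC6 is the closest relative of HERC5 and is the main ISG15 ligase in the mouse. USP18 takes ISG15 off its targets and also binds the interferon receptor subunit IFNAR2, where it damps signalling. The genes of this system belong to the interferon-induced genes, which are commonly switched on through an element called the ISRE in their promoters.

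Promoter windows of RefSeq on GRCh38.p14, from 250 bases before the start site to 50 bases from it on, matched 4 of the 6 genes. The windows of ISG15 and of the HERC5 and HERC6 pair are shown because these 2 ligase genes are neighbours whose readings parted in PANC-1. The capitals mark the ISRE core, searched on both strands as GAAA, any 2 bases and GAAA again.
ISG15, chr1:1013247-1013546, plus strand: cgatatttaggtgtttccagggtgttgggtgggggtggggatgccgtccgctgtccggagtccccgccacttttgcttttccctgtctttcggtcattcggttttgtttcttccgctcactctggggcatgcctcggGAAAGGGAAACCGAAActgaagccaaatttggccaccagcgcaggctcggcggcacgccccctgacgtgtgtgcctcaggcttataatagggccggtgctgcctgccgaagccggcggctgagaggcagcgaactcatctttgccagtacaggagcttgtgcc
HERC5, chr4:88456869-88457168, plus strand: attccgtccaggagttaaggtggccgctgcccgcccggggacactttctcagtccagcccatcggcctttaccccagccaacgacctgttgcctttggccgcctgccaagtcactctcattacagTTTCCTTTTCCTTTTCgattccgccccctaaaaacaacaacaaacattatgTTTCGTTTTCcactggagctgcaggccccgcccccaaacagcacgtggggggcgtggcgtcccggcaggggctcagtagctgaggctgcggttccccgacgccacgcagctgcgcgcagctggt
HERC6, chr4:88378602-88378901, plus strand: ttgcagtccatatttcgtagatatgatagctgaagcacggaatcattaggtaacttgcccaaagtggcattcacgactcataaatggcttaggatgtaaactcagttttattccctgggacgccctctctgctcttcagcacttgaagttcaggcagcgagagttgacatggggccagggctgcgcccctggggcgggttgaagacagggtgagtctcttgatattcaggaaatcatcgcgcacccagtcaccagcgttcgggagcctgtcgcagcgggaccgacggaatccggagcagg
The ISG15 window held 2 matches, which overlap each other, at -113 to -104 and -107 to -98 from the start site. The HERC5 window held 3 matches on the minus strand, at -125 to -116, -119 to -110 and -74 to -65, of which the first and the second overlap. The window of HERC6 held 0, as did both windows listed for UBE2L6. Of 35116 promoter windows of the same length, 3.57% held this core. The interferon gamma element GAS, searched as TTCNNNGAA, stood in 7.66% of all windows, and the GLI consensus GACCACCCA in 0.236%, and neither stood in the windows of these 4 genes. A match is a description of letters and not a site, and the lack of one says only that these letters are not in this window.

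In SW1990 all 5 measured genes were lower in the arrays labelled GLI1, by 3.48-fold to 10.5-fold, and 4 of them passed the test. In PANC-1 HERC5 alone passed it, being 7.49-fold lower in the arrays labelled GLI1, and the other genes differed from their controls mainly in array S8. The test was limma on quantile-normalized log2 values of all genes, and a gene was called where the p adjusted by Benjamini-Hochberg was under 0.05.

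**Figure D1:**
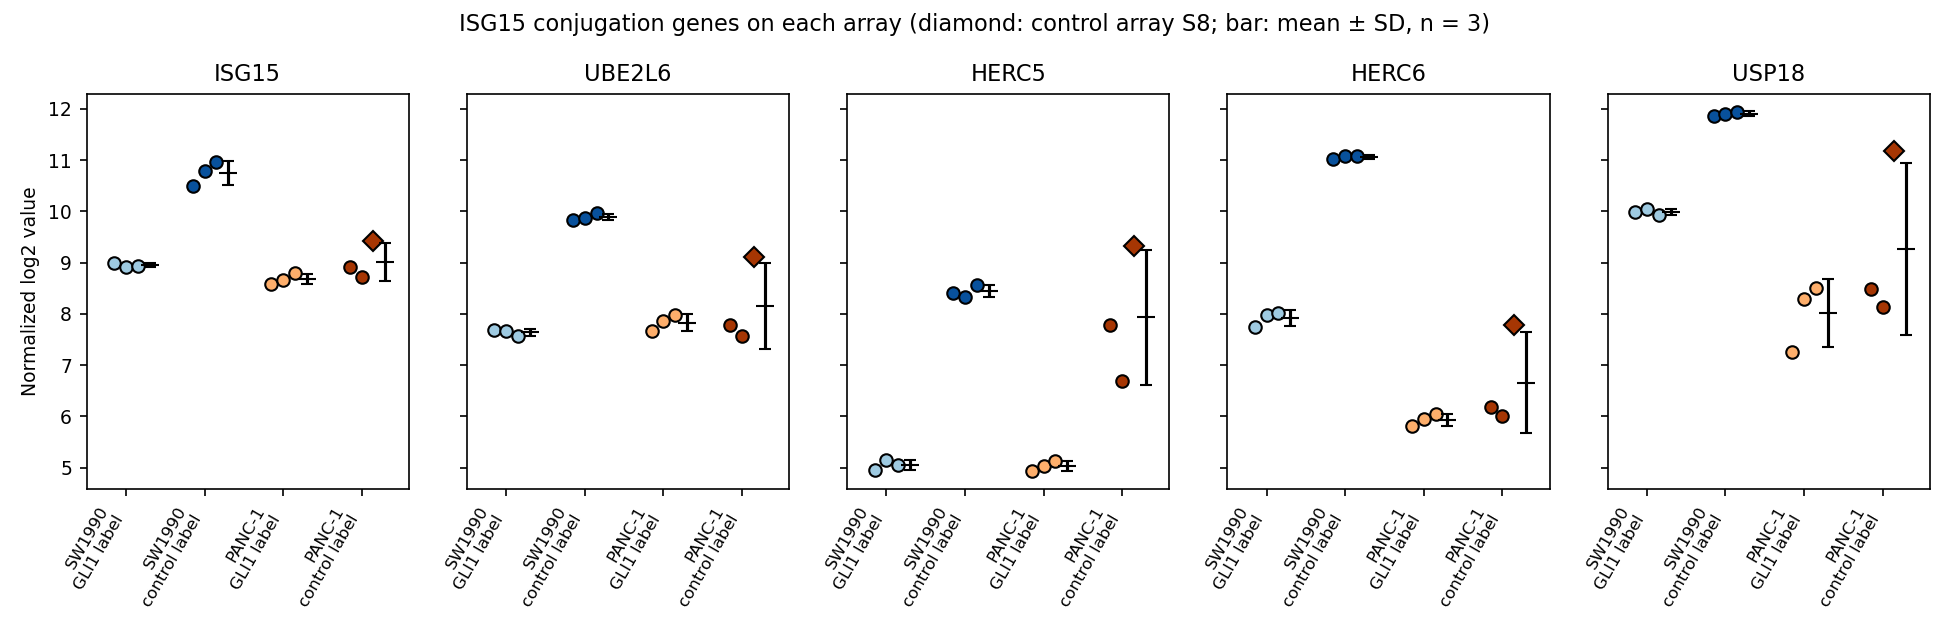
Normalized log2 value (y axis) of ISG15, UBE2L6, HERC5, HERC6 and USP18 on each of the 12 arrays, by line and label (x axis), with the mean and SD of 3 arrays beside each group and control array S8 of PANC-1 as a diamond. The SW1990 control-labelled arrays lie above the GLI1-labelled arrays for each gene, whereas in PANC-1 only HERC5 separates the labels on all 3 arrays.

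ISG15, the modifier itself, read 8.999, 8.92 and 8.93 in the SW1990 arrays labelled GLI1 and 10.50, 10.79 and 10.96 in those labelled control. In PANC-1 it read 8.59, 8.65 and 8.79 in the arrays labelled GLI1 and 8.92, 8.71 and 9.42 in the control arrays S10, S11 and S8. The groups were apart in SW1990 and overlapped in PANC-1, where S11 lay below LIP-2. The log2 fold change in SW1990 was -1.80 (standard error 0.16, limma adjusted p = 5.23e-05), or 3.48-fold lower. In PANC-1 it was -0.34 (95% interval -0.69 to 0.01, limma adjusted p = 0.236), and -0.14 without S8 (limma adjusted p = 0.523). By group mean, ISG15 was highest in the SW1990 control-labelled arrays at 10.75 ± 0.23 (SD, n = 3), followed by the PANC-1 control-labelled arrays at 9.02 ± 0.37, the SW1990 GLI1-labelled arrays at 8.95 ± 0.04 and the PANC-1 GLI1-labelled arrays at 8.68 ± 0.10. Neither of the differences with a test among the lower 3 groups, that of the labels within PANC-1 and that of the lines under the GLI1 label, passed.

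UBE2L6, the conjugating enzyme, read 7.69, 7.66 and 7.57 in the SW1990 arrays labelled GLI1 and 9.83, 9.87 and 9.96 in those labelled control. In PANC-1 its values were 7.66, 7.85 and 7.98 against 7.77, 7.56 and 9.11 in S10, S11 and S8. S10 and S11 fell within or below the range of the GLI1-labelled arrays, and S8 was the one control array above it. The log2 fold change was -2.25 in SW1990 (standard error 0.30, limma adjusted p = 0.000513), or 4.75-fold lower, and -0.32 in PANC-1 (95% interval -0.98 to 0.34, limma adjusted p = 0.629). Without S8 the PANC-1 value turned to 0.16 (limma adjusted p = 0.298). The group means were 9.89 ± 0.06 in the SW1990 control arrays, 8.15 ± 0.84 in the PANC-1 control arrays, 7.83 ± 0.16 in the PANC-1 GLI1-labelled arrays and 7.64 ± 0.06 in the SW1990 GLI1-labelled arrays (SD, n = 3 each), and neither tested difference among the lower 3, between the labels of PANC-1 or between the lines under the GLI1 label, passed.

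HERC5, the ligase, was the one gene of the system that differed between the labels in both lines. Under the GLI1 label it read 4.95, 5.14 and 5.06 in SW1990 and 4.93, 5.03 and 5.12 in PANC-1, at the 20.2 and 19.7 percentile of all genes by group mean, so these arrays may lie close to background. The control-labelled arrays read 8.41, 8.34 and 8.57 in SW1990 and 7.78, 6.70 and 9.33 in S10, S11 and S8 of PANC-1. Every control array lay above every GLI1-labelled array in both lines, and the PANC-1 control arrays spread over a wider range than those of SW1990. HERC5 was 10.5-fold lower in the SW1990 arrays labelled GLI1 (log2 fold change -3.39, standard error 0.47, limma adjusted p = 0.000596). In PANC-1 it was 7.49-fold lower (log2 fold change -2.90, standard error 0.47, limma adjusted p = 0.00494). Without S8 the PANC-1 log2 fold change was -2.21 with limma's adjusted p = 8.78e-05. With PANC-1 fitted alone the adjusted p of limma was 0.0912, and with PANC-1 fitted alone and S8 left out it was 0.00683. In order of group means, the control-labelled arrays of SW1990 at 8.44 ± 0.12 and of PANC-1 at 7.93 ± 1.32 were not told apart by the test across all 12 arrays, but were without S8, as given with the comparison of the lines below. The GLI1-labelled arrays at 5.05 ± 0.10 and 5.03 ± 0.10 were not told apart (SD, n = 3 each).

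HERC6, the neighbour of HERC5 on chromosome 4, read 7.75, 7.99 and 8.02 in the SW1990 arrays labelled GLI1 and 11.02, 11.09 and 11.08 in those labelled control. In PANC-1 the GLI1-labelled arrays read 5.81, 5.95 and 6.04 and the control arrays S10, S11 and S8 read 6.19, 5.999 and 7.78. S11 fell within the GLI1-labelled range and S10 lay just above it. By group mean, HERC6 lay at the 30.1 percentile of all genes in the PANC-1 GLI1-labelled arrays and at the 40.7 percentile in the control-labelled arrays. These readings may lie close to background, which would limit the fall that could be seen there. HERC6 was 8.85-fold lower in the SW1990 arrays labelled GLI1 (log2 fold change -3.15, standard error 0.35, limma adjusted p = 0.000171). In PANC-1 the log2 fold change was -0.72 (95% interval -1.49 to 0.04, limma adjusted p = 0.244), and -0.16 without S8 (limma adjusted p = 0.297). The group means descended from 11.06 ± 0.03 in the SW1990 control arrays to 7.92 ± 0.15 in the SW1990 GLI1-labelled arrays, 6.66 ± 0.98 in the PANC-1 control arrays and 5.93 ± 0.11 in the PANC-1 GLI1-labelled arrays (SD, n = 3 each). The PANC-1 labels did not differ beyond their spread, and the second and the third of these groups were not compared by a test.

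USP18, the ISG15 protease, read 9.996, 10.04 and 9.92 in the SW1990 arrays labelled GLI1 and 11.85, 11.90 and 11.95 in those labelled control. In PANC-1 its values were 7.25, 8.29 and 8.50 under the GLI1 label and 8.48, 8.13 and 11.18 in S10, S11 and S8. The SW1990 groups were apart, while in PANC-1 S10 and S11 lay within the range of the GLI1-labelled arrays, array LIP read lowest and S8 highest. USP18 was 3.77-fold lower in SW1990 (log2 fold change -1.92, standard error 0.63), which did not pass the test across all 12 arrays (limma adjusted p = 0.0549). The standard error is shared over both lines and holds the spread of the PANC-1 arrays. The limma adjusted p was 1.05e-06 with SW1990 fitted alone, 0.000305 without S8 and 0.0356 without S11. In PANC-1 the log2 fold change was -1.25 (95% interval -2.63 to 0.13, limma adjusted p = 0.265), and -0.29 without S8. The group means were 11.90 ± 0.05 in the SW1990 control arrays, 9.99 ± 0.06 in the SW1990 GLI1-labelled arrays, 9.27 ± 1.67 in the PANC-1 control arrays and 8.02 ± 0.67 in the PANC-1 GLI1-labelled arrays (SD, n = 3 each), and within each line the labels did not differ by the test. USP41P, a near-identical copy of USP18, had almost the same profile with a mean absolute difference of 0.115 on the log2 scale over 12 arrays, so the readings of the 2 genes may be shared and those of USP18 are uncertain in that respect.

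Counted together, 4 of the 5 measured genes were lower in the SW1990 arrays labelled GLI1, against a background of 9.62% of all genes called lower, and 0 were higher, against 9.30%. Their median log2 fold change was -2.25, and that of all genes was 0.01. With SW1990 fitted alone all 5 were called, beside 12.4% of all genes called lower in that fit. In PANC-1 1 of 5 was called lower against 5.25% of all genes and 0 higher against 4.39%, with a median of -0.72. Without S8 it was still HERC5 alone, while the share of all genes called lower was 10.96%, and the median of the 5 genes was -0.16. All 5 genes had 3 GLI1-labelled arrays below the 3 control-labelled arrays in SW1990, where 19.95% of all genes did. HERC5 alone did in PANC-1, where 11.6% of all genes did. The two-sided exact permutation test gave p = 0.1 for each of these separations, the smallest that 3 arrays against 3 allow.

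**Figure D2:**
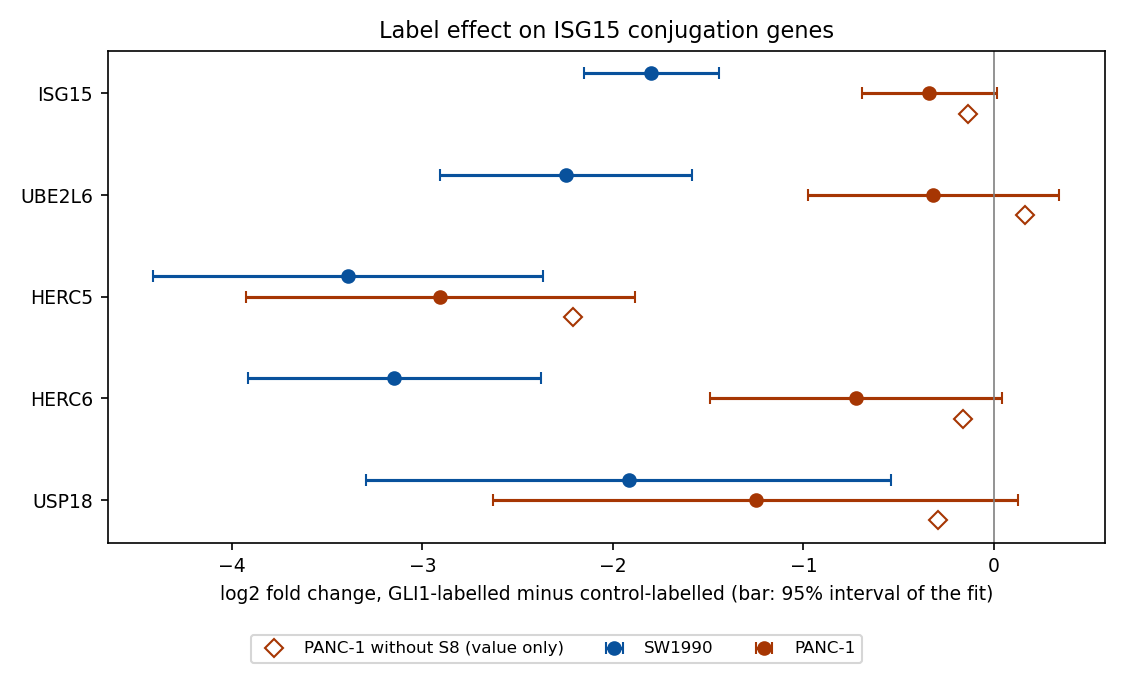
Log2 fold change of each gene (x axis, GLI1-labelled minus control-labelled arrays) in SW1990 and PANC-1 with the 95% interval of the fit, and as open diamonds the PANC-1 value without control array S8, without an interval. The HERC5 intervals of both lines lie below 0, at -3.39 and -2.90, whereas the ISG15, UBE2L6 and HERC6 intervals of the lines do not overlap.

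Whether the label effect differed between the lines was tested as the effect in PANC-1 minus that in SW1990. This difference was 1.46 on the log2 scale for ISG15 (standard error 0.23, limma adjusted p = 0.0102), 2.42 for HERC6 (standard error 0.49, limma adjusted p = 0.0313) and 1.93 for UBE2L6 (standard error 0.42, limma adjusted p = 0.0414), the effect being nearer to 0 in PANC-1. HERC5 at 0.49 (95% interval -0.96 to 1.93, limma adjusted p = 0.798) and USP18 at 0.67 (95% interval -1.28 to 2.61, limma adjusted p = 0.792) did not pass, and these intervals are wide. The 3 genes called of 5 stood beside 1.48% of all genes with a higher effect in PANC-1. These calls rested on few arrays, and HERC6 read dim in PANC-1. Leaving out any array other than S8 kept the call of ISG15 and ended those of HERC6 (2.09 to 2.48, adjusted p from 0.0577 to 0.0827) and UBE2L6 (1.64 to 2.02, adjusted p from 0.0678 to 0.101). Without S8 all 5 genes were called, beside 8.66% of all genes, and the difference was 1.18 for HERC5 (limma adjusted p = 0.0269) and 1.62 for USP18 (limma adjusted p = 0.0152).

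The control-labelled arrays were then set one by one against the mean of the GLI1-labelled arrays of their line, as a description with no test. In SW1990 the 3 control arrays were alike, with a median rise over the 5 genes of 2.19, 2.23 and 2.32 on the log2 scale in a, b and c. In PANC-1 the median rise was 1.85 in S8, 0.26 in S10 and 0.06 in S11. HERC5 did not share the low rise of S10 and S11. It stood 2.75 above the GLI1-labelled mean in S10 and 1.67 above it in S11, whereas the other 4 genes lay between -0.27 and 0.47 in those arrays. In S8 the rises were 4.30 for HERC5, 3.17 for USP18, 1.85 for HERC6, 1.28 for UBE2L6 and 0.75 for ISG15. As a ratio to the mean rise in SW1990 these were 1.27, 1.65, 0.59, 0.57 and 0.42. S8 thus exceeded the SW1990 rise for HERC5 and USP18 and fell short of it for HERC6, UBE2L6 and ISG15. GLI1 itself read 11.46 in S8, close to the other control arrays of PANC-1.

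**Figure D3:**
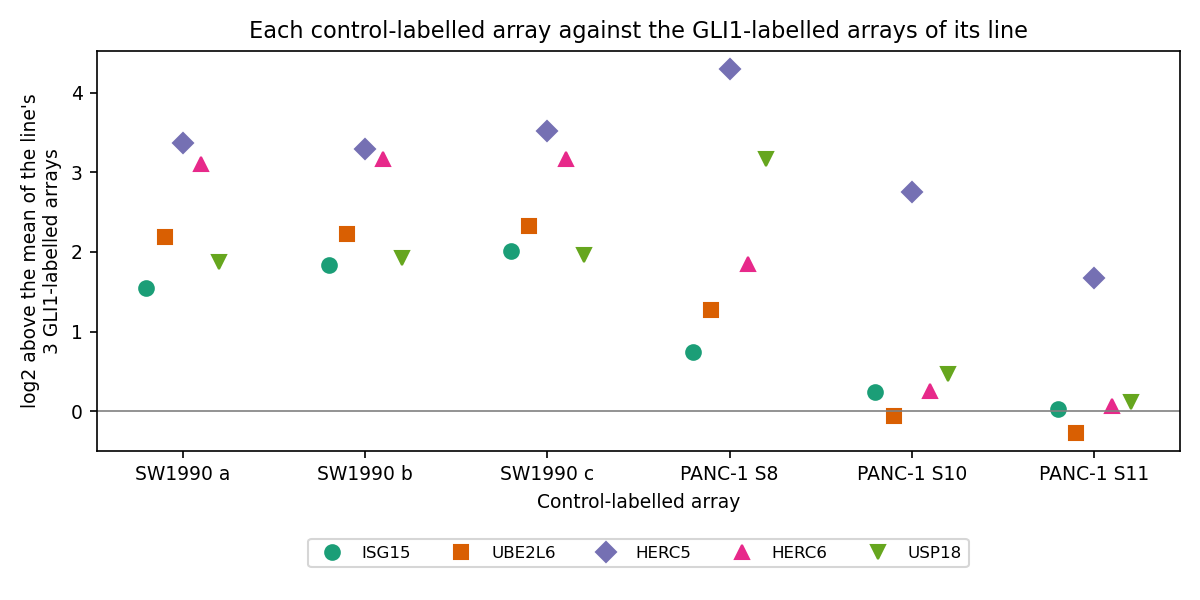
Log2 value of ISG15, UBE2L6, HERC5, HERC6 and USP18 in each control-labelled array (x axis) above the mean of the 3 GLI1-labelled arrays of the same line (y axis). Arrays a, b and c of SW1990 look alike, S8 has all 5 genes above 0, and in S10 and S11 only HERC5 stands clear of 0, at 2.75 and 1.67.

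The lines also differed from each other under one label. Among the control-labelled arrays, 4 of the 5 genes were lower in PANC-1 than in SW1990, beside 21.95% of all genes. HERC6 differed by -4.41 on the log2 scale (standard error 0.35, limma adjusted p = 1.42e-06), USP18 by -2.64 (standard error 0.63, limma adjusted p = 0.00513), UBE2L6 by -1.74 (standard error 0.30, limma adjusted p = 0.000608) and ISG15 by -1.73 (standard error 0.16, limma adjusted p = 5.18e-06). HERC5 did not pass (-0.51, 95% interval -1.53 to 0.52, limma adjusted p = 0.441). Without S8 it did (-1.20, limma adjusted p = 0.00125), as it did with array weights (-1.37, limma adjusted p = 0.000381), so that all 5 genes were lower without S8, beside 23.4% of all genes. Among the GLI1-labelled arrays 2 of the 5 genes were lower in PANC-1, beside 21.01% of all genes. These were HERC6 (-1.98, standard error 0.35, limma adjusted p = 0.000739) and USP18 (-1.97, standard error 0.63, limma adjusted p = 0.0266). USP18 lost this call without any one of the 3 SW1990 GLI1-labelled arrays or without LIP of PANC-1 (-1.59 to -2.001, adjusted p from 0.0610 to 0.101). HERC5 (-0.02, 95% interval -1.04 to 1.002), ISG15 (-0.27, -0.63 to 0.08) and UBE2L6 (0.19, -0.47 to 0.85) did not pass between the lines in the GLI1-labelled arrays. ISG15 was called when the 6 GLI1-labelled arrays were fitted alone (limma adjusted p = 0.0139).

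The relatives of these genes in other conjugation systems showed smaller differences. The shares of all genes called, 9.62% lower and 9.30% higher in SW1990 and 5.25% lower and 4.39% higher in PANC-1, hold for each list that follows, and without S8 the PANC-1 shares were 10.96% lower and 13.3% higher. With PANC-1 fitted alone 0.384% of all genes were called, with 1 gene called in the list of other ligases, proteases and binding partners of ISG15 and 0 in the other lists, where 2 to 9 genes per list had an unadjusted p under 0.05. Among 9 listed activating enzymes of ubiquitin and other modifiers, 7 were measured, 2 were lower and 0 higher in SW1990, and 1 was lower and 0 higher in PANC-1, with medians of 0.13 and 0.01. Without S8 the PANC-1 counts were 2 lower and 2 higher. UBA6, an activating enzyme of ubiquitin and FAT10, was lower in both lines (-0.40, limma adjusted p = 0.000714, and -0.25, limma adjusted p = 0.0201). UBA1, the main ubiquitin activating enzyme, had log2 fold changes of 0.14 and -0.01 and did not pass. Of 17 conjugating enzymes 11 were measured, with 1 higher in SW1990 and 2 in PANC-1, 0 lower in either, and medians of 0.09 and 0.05, and without S8 3 were higher and 2 lower in PANC-1. UBE2E3 was called higher in both lines (0.22 and 0.32). UBE2L3, the closest relative of UBE2L6, had no value. All 4 other HERC ligases were measured, none passed in SW1990 and 1, HERC4, was lower in PANC-1 (-0.44, limma adjusted p = 0.0392). Without S8 1 was lower and 1 higher in PANC-1. The medians of these ligases were 0.03 and 0.02. Of 14 listed ubiquitin and ubiquitin-like modifiers 9 were measured, with 3 higher and 2 lower in SW1990, 2 higher and 2 lower in PANC-1, and medians of 0.15 in both lines, and without S8 4 were higher and 2 lower in PANC-1. FAU, which encodes a ubiquitin-like protein fused to a ribosomal protein, was higher (0.60 and 0.29), and UFM1, another ubiquitin-like modifier, was lower (-0.56 and -0.40).

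Of 16 other ligases, proteases and binding partners of ISG15 or USP18, 12 were matched to a measured gene by the listed symbol. Of these, 2 were higher and 1 lower in each line, with medians of -0.02 and 0.00. Without S8 4 were higher and 2 lower in PANC-1. These counts stand beside the shares of all genes given above and were not tested against them. They leave out USP41, which was listed under that symbol but measured as USP41P. USP41P was lower in SW1990 (-1.93, limma adjusted p = 0.0354). In PANC-1 it did not pass (-1.09, limma adjusted p = 0.287, and -0.20 without S8, limma adjusted p = 0.617). SQSTM1, the autophagy receptor p62, read 9.43, 9.43 and 9.42 in the SW1990 arrays labelled GLI1 and 10.35, 10.32 and 10.28 in the control arrays, and was lower in both lines (-0.89, limma adjusted p = 7.09e-06, and -0.61, limma adjusted p = 0.000633). USP5 and USP13, ubiquitin proteases that also react with ISG15, were higher in both lines (0.58 and 0.28 for USP5, 0.64 and 0.39 for USP13). IFNAR2, the receptor subunit that USP18 binds, had values of 0.17 and 0.42 that did not pass. Without S8 it was 0.60 in PANC-1 (limma adjusted p = 0.000260).

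Of 10 interferon signalling factors 7 were measured, and 2 were lower in SW1990 and 1 in PANC-1, with medians of -0.01 and 0.00. Without S8 3 were higher and 1 lower in PANC-1. IRF1 and IRF7, transcription factors of the interferon response, were the lower pair in SW1990 and their effects were nearer to 0 in PANC-1, as for ISG15. IRF1 read 7.12, 7.18 and 7.18 against 8.73, 8.87 and 8.82 in SW1990 and 7.59, 7.41 and 7.40 against 7.44, 7.49 and 7.97 in S10, S11 and S8. Its log2 fold changes were -1.65 (limma adjusted p = 1.37e-05) and -0.16 (limma adjusted p = 0.480), a difference between lines of 1.49 (limma adjusted p = 0.00138). IRF7 had -1.41 (limma adjusted p = 0.000247) and -0.37 (limma adjusted p = 0.206), a difference of 1.04 (limma adjusted p = 0.0460). The gene lower in PANC-1 was JAK1, a kinase of the interferon receptors (-0.31, limma adjusted p = 0.0104).

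Among 20 genes whose proteins are known to carry ISG15, 16 were measured, with 8 lower and 2 higher in SW1990, 4 lower and 2 higher in PANC-1, and medians of -0.24 and -0.21. Without S8 6 were lower and 5 higher in PANC-1, and with PANC-1 fitted alone limma called 0 of the 16, 9 of which had an unadjusted p under 0.05. The lower ones included genes that interferon itself induces. IFIT1 and IFIT3, which bind viral RNA or its partners, had log2 fold changes of -4.74 and -4.64 in SW1990 and -2.69 and -2.74 in PANC-1, and IFIH1, the sensor MDA5, had -4.03 and -2.30, each called in both lines. MX1, an antiviral GTPase, was called lower in SW1990 (-3.57) and not in PANC-1 (-1.15, limma adjusted p = 0.206). Without S8 the PANC-1 values were -1.73 for IFIT1, -2.02 for IFIT3 and -1.49 for IFIH1, each called, and -0.33 for MX1, not called. PCNA, the replication clamp, was higher in both lines (0.64 and 0.90).

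**Figure D4:**
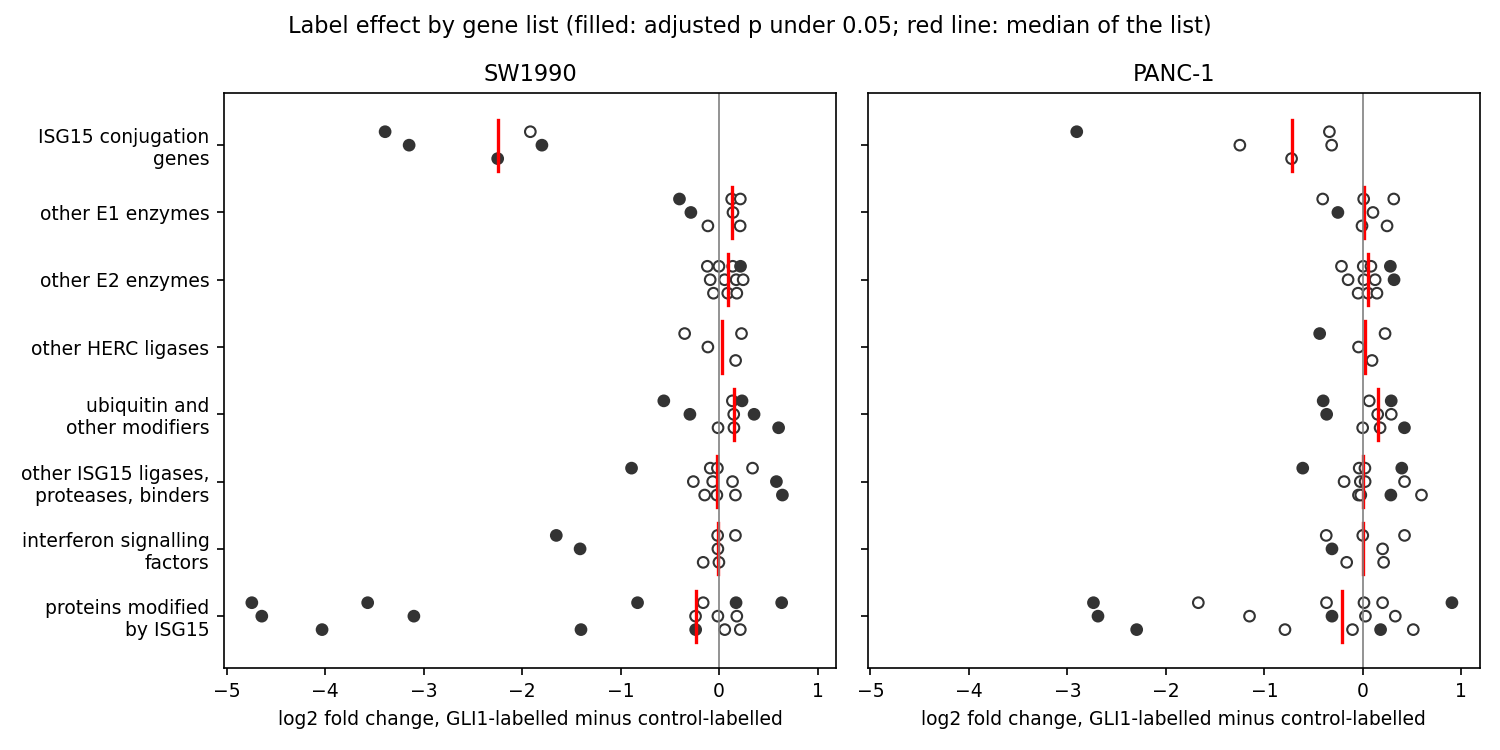
Log2 fold change (x axis, GLI1-labelled minus control-labelled arrays) of each measured gene in 8 lists (y axis) for SW1990 and PANC-1, filled where limma's adjusted p was under 0.05, with the median of each list as a red line. The ISG15 conjugation genes have medians of -2.25 and -0.72, and the lists of other activating and conjugating enzymes and HERC ligases lie close to 0. USP41P, listed as USP41, is not among the points.

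The genes whose array profile lay nearest to the median of the 5 genes were ranked by the mean absolute difference over the 12 arrays, with each gene centred on its own mean, as a description. The nearest 8 were CMPK2 (0.255), SP100 (0.261), SLC7A11 (0.295), PARP14 (0.305), GBP1 (0.316), HLA-B (0.326), OAS3 (0.340) and PLSCR1 (0.345), and the median over 20643 candidate genes was 1.11. CMPK2, a mitochondrial nucleotide kinase, read 6.34, 6.56 and 6.44 against 8.74, 8.86 and 8.96 in SW1990, and 6.04 in all 3 PANC-1 GLI1-labelled arrays against 6.16, 6.05 and 7.27 in S10, S11 and S8. The single genes had different nearest profiles. ISG15 lay nearest to LGALS9 (0.0953) and LRRC39 (0.122), UBE2L6 to APOL2 (0.0948) and PLAAT4 (0.123), HERC6 to GBP3 (0.442) and OAS1 (0.468), and USP18, after USP41P, to PARP14 (0.218).

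HERC5 lay nearest to IFNL2 (0.164) and IFNL3 (0.261), interferon lambda genes that are near-identical copies of each other. IFNL2 read 7.12, 7.12 and 6.89 in the SW1990 arrays labelled GLI1 and 10.45, 10.29 and 10.60 in those labelled control. In PANC-1 it read 6.98, 7.08 and 7.14 against 8.98, 8.59 and 11.72 in S10, S11 and S8. As with HERC5, every control array lay above every GLI1-labelled array, S10 and S11 included. The log2 fold changes of IFNL2 were -3.40 in SW1990 (limma adjusted p = 0.00250) and -2.70 in PANC-1 (limma adjusted p = 0.0196), and -1.72 in PANC-1 without S8 (limma adjusted p = 1.37e-05). Within the system itself, ISG15 and UBE2L6 had the closest pair of profiles (0.232), then HERC6 and USP18 (0.607), whereas HERC5 and HERC6, adjacent on the chromosome, were the farthest pair (1.47). This measure grows with the size of a gene's changes. By rank, 17 genes were nearer to ISG15 than UBE2L6 was and 11 nearer to UBE2L6 than ISG15, while 5 were nearer to HERC6 than USP18 and 16 nearer to USP18 than HERC6, so neither pair is the closer by that count. To ISG15, 21402 genes were nearer than HERC5 and 21560 nearer than HERC6. In the other direction, 70 genes were nearer to HERC5 than ISG15 was, and 142 nearer to HERC6 than ISG15 was. Between the 2 ligase genes, 1833 genes were nearer to HERC5 than HERC6 was and 2071 nearer to HERC6 than HERC5. The points of each such profile share the same 12 arrays.

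Along the chromosomes, in the gene order of RefSeq on GRCh38.p14, the difference was not shared by most neighbours. The measured genes beside ISG15 on chromosome 1 (PERM1, HES4, AGRN and RNF223) were not called in either line, apart from AGRN in PANC-1 without S8 (0.32, limma adjusted p = 0.0179). On chromosome 4 the order was ABCG2, PPM1K, HERC6, HERC5, HERC3 and the pseudogene RNU6-33P. PPM1K, a mitochondrial phosphatase, read 7.29, 7.16 and 7.14 in the SW1990 arrays labelled GLI1 against 8.55, 8.55 and 8.73 (log2 fold change -1.42, limma adjusted p = 0.00103), and -0.43 in PANC-1 did not pass. HERC3, on the other side of HERC5, had 0.23 in both lines and did not pass, though it did in PANC-1 without S8 (0.29, limma adjusted p = 0.0454). TIMM10, a mitochondrial chaperone gene near UBE2L6 on chromosome 11, was higher in both lines (0.59, limma adjusted p = 0.000752, and 0.41, limma adjusted p = 0.0144). PEX26 near USP18 on chromosome 22 was higher in SW1990 (0.30, limma adjusted p = 0.00855). Both were opposite in direction to UBE2L6 and USP18. The other measured neighbours of these genes were not called in either line. In SW1990 SMTNL1 (-0.27, limma adjusted p = 0.0524), TUBA8 (-0.11) and GGTLC3 (-0.12) lay below 0, and SERPING1 (0.02), MIR130A (0.27) and TMEM191B (0.04) above it.

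**Figure D5:**
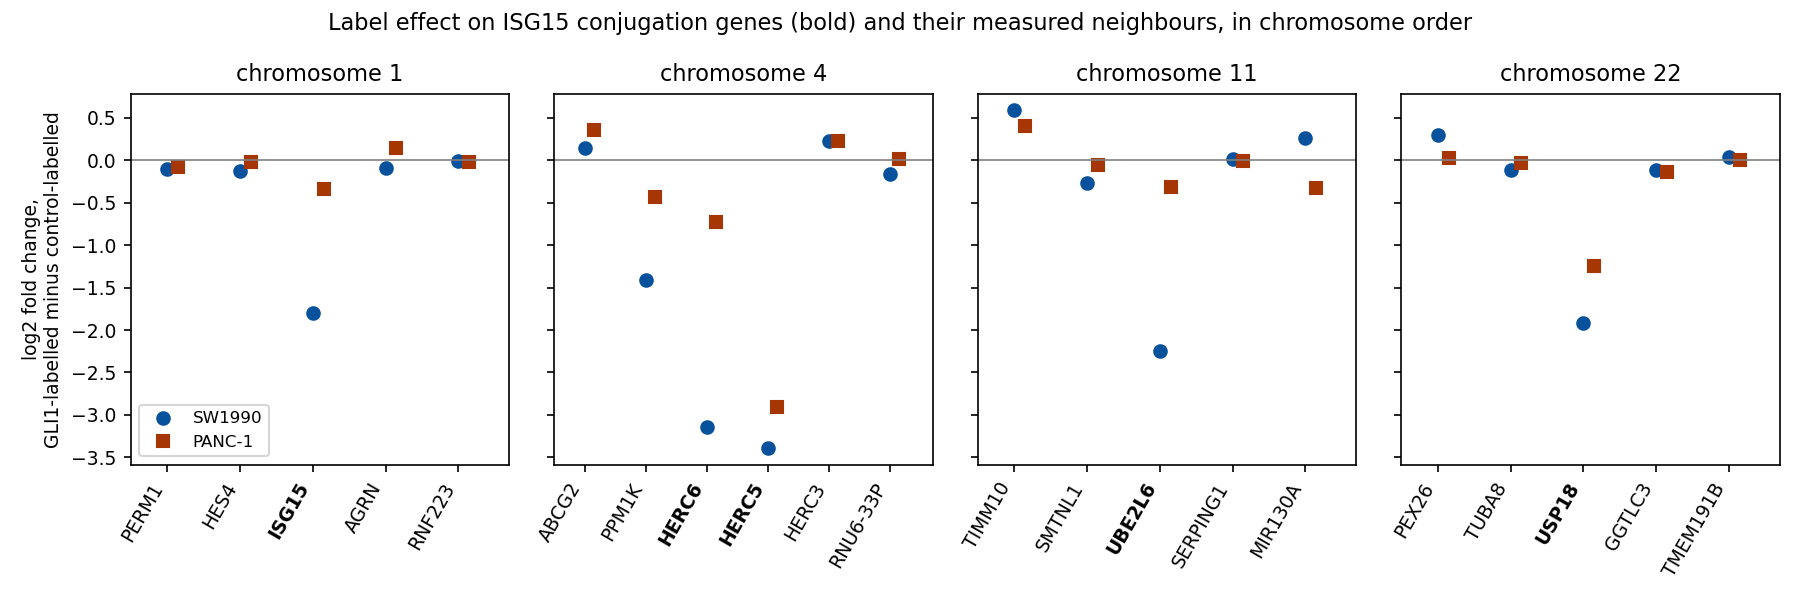
Log2 fold change (y axis, GLI1-labelled minus control-labelled arrays) of ISG15, HERC6 and HERC5, UBE2L6 and USP18 (bold) and of the measured genes on each side, in chromosome order (x axis, not to scale in distance), for SW1990 and PANC-1. HERC6 and HERC5 lie together at -3.15 and -3.39 in SW1990 and apart at -0.72 and -2.90 in PANC-1.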

How the data were processed

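Each of the 12 arrays has 70523 log2 values, deposited by the authors after background correction and normalization (tools not given in the sources used here). Calls of detected probe sets were not used, and precision is limited by the number of arrays. Because array medians ran from 5.86 to 5.996, the values were quantile-normalized. Probe sets with 1 gene symbol were kept (23781), updated through RefSeq tables, and those with several (1543) or none (45199) were left out. For the 528 genes with several probe sets, the one with the highest mean was used, and each measured gene of the system had 1 probe set. Means of the 4 groups were fitted with limma 3.58.1 in R 4.3.3, with 5 contrasts and adjustment over all 22411 genes, and the fit was tested on simulated data. Plots and promoter searches used Python 3.11.15. No array was left out of the main results.

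The genes and lists were chosen with earlier results of these data known. The genes named are those of the system, GLI1, up to 4 with the lowest adjusted p in each list and line, close relatives, the 2 nearest measured genes on each side, the 8 most like the system and the 2 most like each gene. Alternatives were the deposited values, median centring, each line alone, array weights, trend and robust eBayes, other probe set rules, a filter on dim genes, other thresholds, the methods' t-test, a replicate block and leaving out each array.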

Additional observations from a re-analysis of the deposited data

Results flagged for a closer look

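The label effect of 3 genes differed between the lines by limma's test of the difference itself, over 3 arrays in each of the 4 groups. The effect in PANC-1 minus that in SW1990 was 2.42 on the log2 scale for HERC6 (adjusted p = 0.0313), 1.46 for ISG15 (adjusted p = 0.0102) and 1.93 for UBE2L6 (adjusted p = 0.0414). For each gene the effect in SW1990 was the larger, and GLI1 ran against its label in both lines. Without array S8 the differences were 2.99 for HERC6, 1.66 for ISG15 and 2.41 for UBE2L6, each called. Leaving out any one of the other 11 arrays kept the call of ISG15 and ended those of HERC6 (adjusted p from 0.0577 to 0.0827) and UBE2L6 (adjusted p from 0.0678 to 0.101).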

How the results depend on the processing

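The 4 genes called lower in SW1990 became 5 with each line alone, with array weights, without S8, without S11 and without the dimmest genes, among others, and did not drop below 4 under any alternative run. Beside the 5 with each line alone, 12.4% of all genes were called lower. For the other alternatives that gave 5, the share of all genes was not taken, so those counts have no background beside them. The single PANC-1 call, HERC5, became 0 with each line fitted alone and 0 by the methods' t-test after adjustment. With each array left out in turn, the 3 genes with a larger effect in SW1990 ranged from 1 to 5. They were 1 with median centring, 5 with array weights and 0 at an adjusted p under 0.01, and the shares of all genes in these alternatives were not taken. The 2 genes lower in PANC-1 among GLI1-labelled arrays were 1 at an adjusted p under 0.01 and ranged from 1 to 2 with an array left out. The cause of these changes was not tested. Values near 0 changed sign. UBE2L6 in PANC-1 turned to 0.19 with array weights and to 0.16 without S8 (from -0.61 to 0.16 with an array left out). It was also 0.16 in the fit of PANC-1 alone without S8, which was not planned and was chosen after seeing the data. The attention given to S8 in the other fits also came from these data. With an array left out, the HERC5 difference of effects ranged from -0.13 without S11 to 1.18 without S8 (called, as with array weights at 1.33), and its difference between the control-labelled lines from -1.20 without S8 to 0.11 without S11 (-1.37 with array weights). With an array left out, its difference between GLI1-labelled lines ranged from -0.072 to 0.029 (-0.10 with the values as deposited), being above 0 without LIP-1 of SW1990 (0.025) and without LIP of PANC-1.

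GLI1-labelled arrays of both lines share the names LIP, LIP-1 and LIP-2. Deviations of arrays of the same name correlated at 0.110, 0.017 and 0.060, and those of unlike names at -0.121 to 0.082. Whether arrays of the same name share more than that name is not stated and was not tested. With that name as a replicate block, 3 genes were lower in PANC-1, the same count as for those 6 arrays alone without it. The groups within a line share no names and were not paired. Signal over background limits what can be shown for dim readings such as HERC5 under the GLI1 label and HERC6 in PANC-1.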
